A study of Mus musculus with 4 samples.

Results

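Cells make cholesterol and fatty acids from the same precursor, acetyl-CoA, and 31 genes of these routes were followed in striated muscle of mice lacking MG56. MG56 is another name of Hhatl, whose product sits in the reticulum membranes of striated muscle cells. The genes were chosen by name: enzymes of the mevalonate route, enzymes from squalene to sterol, genes that regulate these routes or carry sterol, and lipogenic enzymes. Probe sets annotated to 1 gene alone represented 30 of the 31, among the 18193 genes of the array. No probe set was annotated to Acat2, the cytosolic thiolase that begins the route, alone, and it has no ratios here.

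RNA of tibialis anterior (TA), the fast muscle along the shin, and of heart was hybridised to Affymetrix mouse arrays. The 4 groups were TA of MG56-knockout mice, TA of wild-type mice, heart of MG56-knockout mice and heart of wild-type mice, all on the C57BL/6J background and all 9 days old. The design text states that the RNA of 3 knockout mice was mixed, and that wild-type RNA was mixed likewise. How many wild-type mice were used, and how the gene was deleted, the sources used here do not say. With 1 pooled array in each group there is no replicate error and no p-value, and each ratio compares 2 pools and not populations of mice.

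Signals were in arbitrary linear units, and their overall median, 101.3, was taken as a floor. Signals below this floor were set to it, and a gene with every compared array below it was not measured there. A ratio that needed this is a lower bound, written "at least". Log2 ratios set knockout against wild type unless said otherwise, and a gene was counted as higher or lower from 1.5-fold. Signals of different probe sets cannot be compared as levels, so each gene was compared only with itself. Summed signals of marker lists were compared only with the same sum on another array, and bright genes weigh most in them. In bulk tissue, fewer cells of a type and less RNA per cell cannot be told apart.

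Hhatl itself was 5.09-fold lower in the knockout pool in TA and 2.40-fold lower in heart. The sources used here do not say where its only probe set lies relative to the deletion. The tissues matched their labels: 11 of 12 skeletal fibre markers were at least 2-fold higher in wild-type TA than in wild-type heart, and 10 of 11 cardiomyocyte markers at least 2-fold lower. The pools also differed in sex-linked transcripts. Uty, Eif2s3y and Kdm5d of the Y chromosome were between 1.57-fold and 2.71-fold higher in the knockout pools of both tissues, and Xist was 1.44-fold lower in TA and 1.30-fold lower in heart. Of the genes followed, Nsdhl and Ebp are on chromosome X. The part of sex in the results was not tested.

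As background, the mevalonate route turns acetyl-CoA into isoprenoids, and squalene is then oxidised, cyclised and trimmed to cholesterol. SREBP transcription factors, encoded by Srebf1 and Srebf2, are made as membrane proteins of the endoplasmic reticulum. When membrane sterol is low, the escort protein Scap carries them to the Golgi, where they are cut and released to the nucleus. When sterol is plentiful, Insig1 and Insig2 hold Scap back. Srebf2 products act mainly on sterol genes and Srebf1 products mainly on lipogenic genes. Striated muscle uses sterol chiefly for its membranes, and the isoprenoid branch also feeds dolichol, ubiquinone and protein prenylation.

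SREBP factors bind sterol regulatory elements beside CCAAT boxes, so RefSeq promoter windows (GRCm38.p6, 250 bases before to 50 after a start site) were searched on both strands. The table holds windows for 25 of the 31 genes, among them Acat2, which has no ratios here. The letters CCAAT occurred in a window of 21 of these 25 genes (84%), against 42.7% of 9815 genes measured on the arrays. The GC box GGGCGG occurred in 21 of 25 (84%), against 68.3%, and the E-box CACGTG in 5 of 25 (20%), against 11.7%. The sterol regulatory element written as TCACNCCAC occurred in 1 of 25, Hmgcs1, where it begins 137 bases before the start site, against 1.32% of measured genes. Counted by window instead, the shares of all 32851 were 37.4% for CCAAT, 35.7% for GGGCGG, 7.15% for CACGTG and 1.24% for TCACNCCAC. Of the 34 windows of the genes followed, 64.7%, 73.5%, 17.6% and 2.94% held these letters, in the same order. Overlaps between motifs were kept. A match is a description, and no match says only that these letters are not in this window. The windows below, each cut to the 250 bases before the start site, are shown for the gene with the element and for 3 mevalonate genes with ratios beyond 2-fold. Capitals mark CCAAT on either strand and, in Hmgcs1, also TCACCCCAC.

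Hmgcs1, chr13:119690101-119690350, plus strand: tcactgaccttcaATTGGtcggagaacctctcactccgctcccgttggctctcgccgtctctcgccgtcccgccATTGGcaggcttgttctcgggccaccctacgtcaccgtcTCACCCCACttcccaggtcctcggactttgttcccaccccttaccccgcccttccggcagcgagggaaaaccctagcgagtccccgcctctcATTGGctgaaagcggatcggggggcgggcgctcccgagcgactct
Mvk, chr5:114444019-114444268, plus strand: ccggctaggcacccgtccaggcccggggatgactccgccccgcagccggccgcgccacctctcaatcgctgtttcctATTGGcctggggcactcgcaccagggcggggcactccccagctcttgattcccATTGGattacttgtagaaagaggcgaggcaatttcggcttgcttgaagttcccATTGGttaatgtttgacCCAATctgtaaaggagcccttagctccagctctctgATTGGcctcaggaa
Mvd, chr8:122443423-122443672, minus strand: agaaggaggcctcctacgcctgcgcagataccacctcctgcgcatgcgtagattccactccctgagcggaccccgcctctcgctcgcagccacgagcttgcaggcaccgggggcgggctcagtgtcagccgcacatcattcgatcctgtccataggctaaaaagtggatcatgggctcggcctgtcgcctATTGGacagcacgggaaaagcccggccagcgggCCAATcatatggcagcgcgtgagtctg
Idi1, chr13:8885356-8885605, plus strand: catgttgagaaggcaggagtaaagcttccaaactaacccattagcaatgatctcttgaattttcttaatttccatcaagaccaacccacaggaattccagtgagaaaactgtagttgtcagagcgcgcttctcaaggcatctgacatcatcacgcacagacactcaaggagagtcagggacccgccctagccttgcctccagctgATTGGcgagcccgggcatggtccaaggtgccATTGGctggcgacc

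The printed stretches hold CCAAT letters 3 times in Hmgcs1, 5 times in Mvk, 2 times in Mvd and 2 times in Idi1. The values of these genes follow, and genes with such letters were found at ratios in both directions.

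In knockout TA the enzymes did not move as a block. Of the 30 genes, 2 were at least 1.5-fold higher (6.67%, against 4.19% of all 11528 genes measured) and 4 at least 1.5-fold lower (13.3%, against 4.44%). The higher ones were Mvd and, on 1 of its 2 probe sets, Srebf2, whose other probe set had a log2 ratio of -0.60. With the median over probe sets, 1 gene, Mvd, was higher. The lower ones were Mvk, Sqle, Dhcr7 and, only on the probe set that stands for it, Hsd17b7. The median log2 ratio was -0.05, beside -0.01 over all genes, with 13 above 0 and 17 below. In knockout heart the balance was lower: 0 of 30 genes were 1.5-fold higher (against 2.67% of all 11452 genes) and 6 were 1.5-fold lower (20%, against 4.18%), namely Sqle, Idi1, Srebf2, Msmo1, Dhcr7 and Stard4. The median in heart was -0.22, beside -0.002 over all genes, with 11 above 0 and 19 below. Just short of 1.5-fold lay Fasn, higher by 1.49-fold, and Cyp51, lower by 1.47-fold, both in heart.

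**Figure D1:**
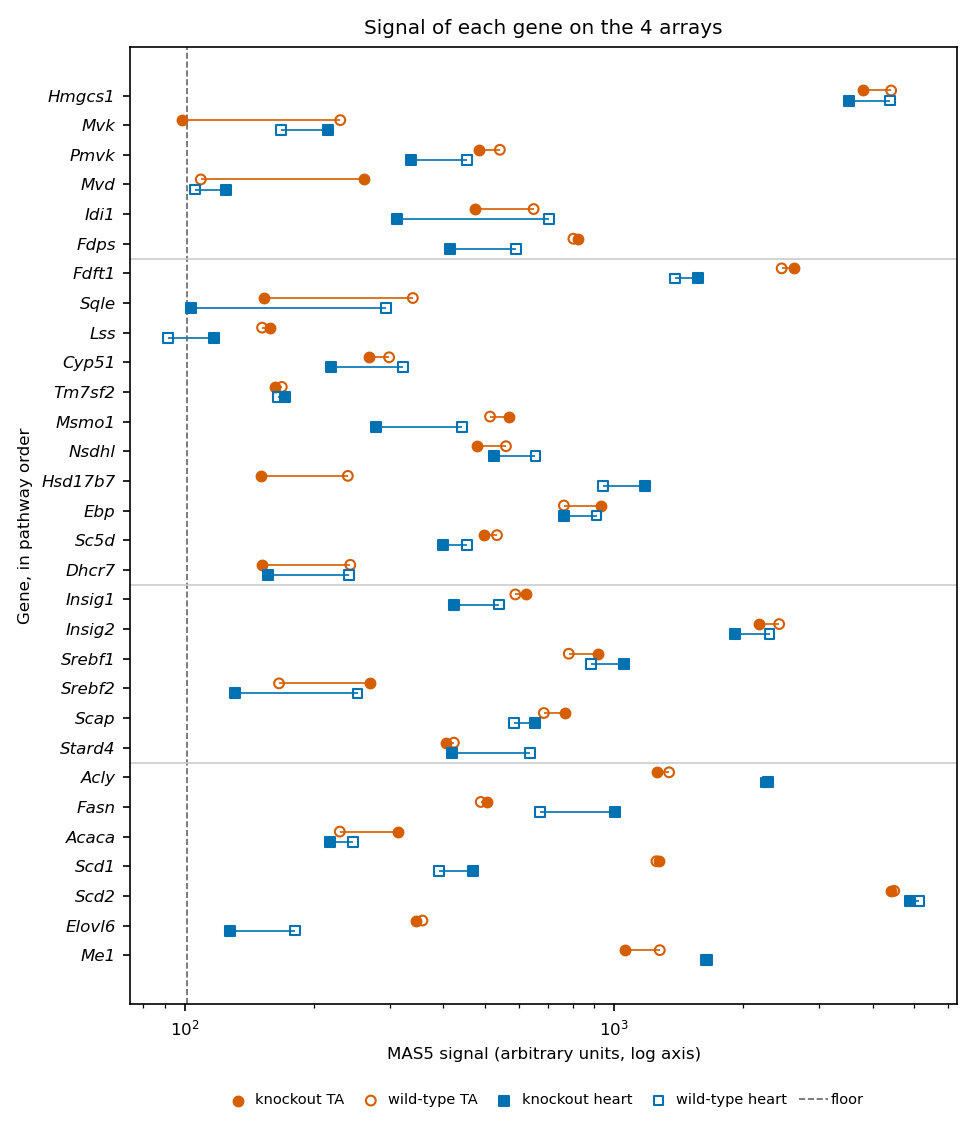
MAS5 signal (arbitrary units, log axis) of the probe set that stands for each of 30 genes on the 4 arrays, with knockout filled, wild type open, TA as circles and heart as squares; each point is 1 array of pooled RNA and the dashed line is the floor of 101.3. Sqle and Dhcr7 have the filled symbol left of the open one in both tissues, while Mvk, Mvd and Srebf2 are wide apart in TA and the pair is turned or narrower in heart.

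The mevalonate genes gave the widest contrasts of TA. Hmgcs1, whose enzyme condenses acetyl-CoA units, had signals of 3802.5 in knockout and 4417 in wild-type TA, and 3530.3 and 4386.5 in heart. It was therefore only slightly lower in the knockout pools, 1.16-fold in TA and 1.24-fold in heart, and all 4 of its measured probe sets were below 0 in both tissues. Mvk, the mevalonate kinase gene, had a signal of 98.7 in knockout TA, under the floor, against 230.3 in wild type, and 215 and 168 in knockout and wild-type heart. In TA it was at least 2.27-fold lower, while in heart it was 1.28-fold higher. A second probe set of Mvk was near the floor, with signals of 78.9 and 108 in TA, and carried no more than a bound of -0.09.

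Pmvk, the next kinase, was 1.12-fold lower in TA and 1.35-fold lower in heart. Mvd, whose enzyme decarboxylates the product of Pmvk, had signals of 260.9 in knockout and 109 in wild-type TA, and 125 and 106 in heart. It was 2.39-fold higher in knockout TA, and its second probe set gave 2.30-fold, with signals of 310 and 135. In heart it was 1.18-fold higher, close to the floor on both arrays. Mvk and Mvd thus lay in opposite directions in the same muscle, though they act within 2 steps of each other.

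Idi1, the isomerase that makes the second isoprenoid building block, had signals of 475 in knockout and 649.5 in wild-type TA, and 312 and 705 in heart. It was 1.37-fold lower in TA and 2.26-fold lower in heart. Both probe sets showed this order: the log2 ratios of the other one were -0.80 in TA and -1.32 in heart. Fdps, the farnesyl diphosphate synthase gene, was level in TA (825 and 804) and 1.42-fold lower in heart (415 and 591). Over the 6 mevalonate genes the median was -0.19 in TA and -0.37 in heart.

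From squalene on, Sqle stood apart in both tissues. It encodes squalene epoxidase, an oxygen-requiring and flux-controlling enzyme of the sterol branch. Its signals were 153 in knockout and 339.8 in wild-type TA, and 104 and 294 in heart, so both knockout pools were below both wild-type pools. It was 2.22-fold lower in TA and 2.84-fold lower in heart, where it ranked 27 from the bottom of the 11452 genes. Knockout heart was just above the floor, and the array has 1 probe set annotated to Sqle alone.

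Dhcr7, a late reductase of the route, was the other gene past 1.5-fold in both tissues. Its signals were 151 in knockout and 243 in wild-type TA, and 157 and 241 in heart. It was 1.61-fold lower in TA and 1.54-fold lower in heart, with 1 probe set. The wild-type signals of the tissues were nearly equal for this gene, and so were the knockout signals.

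Hsd17b7, whose enzyme reduces a sterol ketone, differed between tissues. Its signals were 151 in knockout and 239.8 in wild-type TA, and 1181 and 943 in heart. In TA it was 1.59-fold lower, and in heart it was 1.25-fold higher. Its probe sets disagreed in TA, where another bright one read 207 and 200.5, a log2 ratio of 0.045.

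Msmo1 and Cyp51, oxidases that remove methyl groups from the sterol ring, were lower in knockout heart and close to equal in TA. Msmo1 had signals of 570.3 and 514 in knockout and wild-type TA, and 279 and 443 in heart, where it was 1.59-fold lower. Cyp51 was 1.12-fold lower in TA and 1.47-fold lower in heart, and its second measured probe set gave 1.17-fold and 1.48-fold lower.

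The remaining enzymes of the sterol branch stayed within 1.3-fold in both tissues. Fdft1, the squalene synthase gene one step before Sqle, was 1.07-fold higher in TA and 1.13-fold higher in heart. Lss, the cyclase gene one step after Sqle, was 1.04-fold higher in TA and at least 1.15-fold higher in heart. Ebp, an isomerase gene, was 1.22-fold higher in TA and 1.19-fold lower in heart. Nsdhl, which takes part in removing methyl groups, was 1.17-fold and 1.25-fold lower, the desaturase gene Sc5d 1.07-fold and 1.14-fold lower. The reductase gene Tm7sf2 was within 1.04-fold in both tissues. So the genes directly before and after Sqle did not share its ratio. Over the 11 genes of this branch the median was -0.10 in TA and -0.25 in heart. In each tissue 3 were 1.5-fold lower (27.3%, against 4.44% of all genes in TA and 4.18% in heart).

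**Figure D2:**
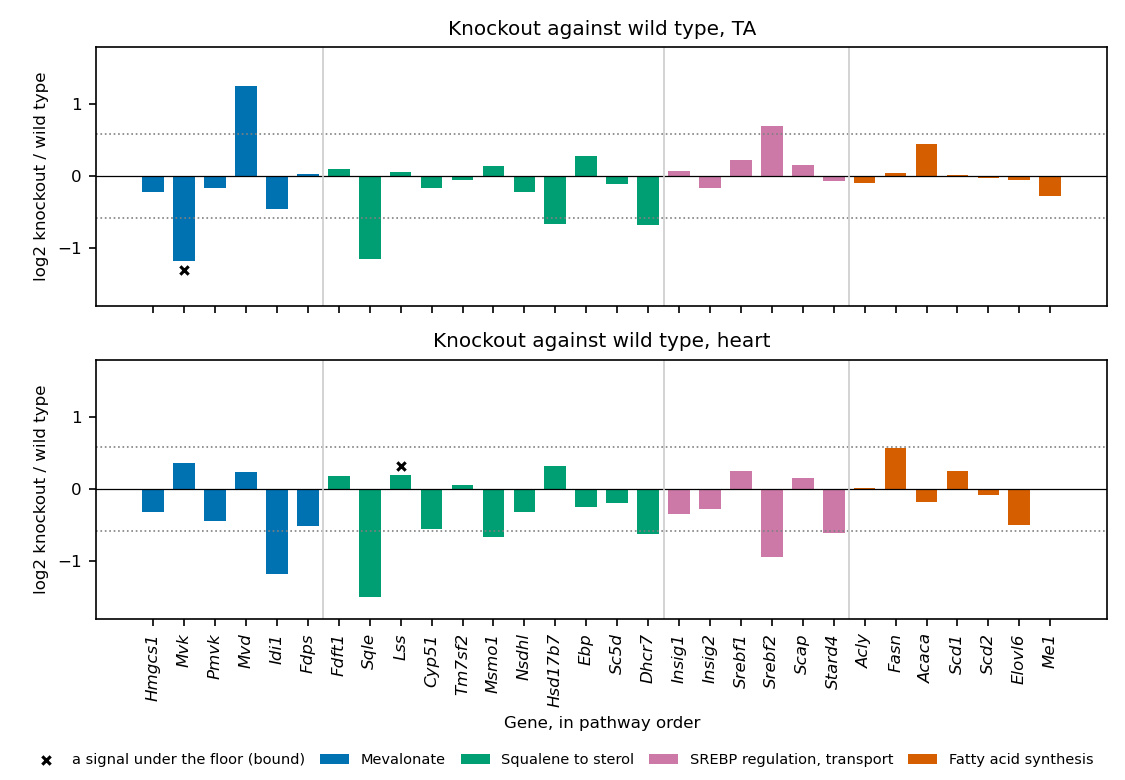
Bars give the log2 ratio of knockout over wild type for each of 30 genes in pathway order, in TA (upper panel) and heart (lower panel); colours mark the role, dotted lines 1.5-fold, and a cross a ratio in which a signal was raised to the floor. In heart the 6 bars past the lower line are Idi1, Sqle, Msmo1, Dhcr7, Srebf2 and Stard4 and none passes the upper line, while TA has bars past both.

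Of the 6 genes of regulation and sterol transport, 4 were above 0 in TA and 2 below. In heart 2 were above and 4 below, on the probe sets that stand for them. Insig1, a target as well as a restraint of SREBP, had signals of 623 and 589 in knockout and wild-type TA, and 424 and 539.8 in heart. It was 1.06-fold higher in TA and 1.27-fold lower in heart. Insig2 was 1.11-fold and 1.20-fold lower, although its 3 probe sets were not all on the same side of 0. The escort gene Scap was 1.12-fold higher in both tissues. Srebf1 was 1.17-fold higher in TA and 1.20-fold higher in heart.

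Srebf2 had signals of 270.0 in knockout and 166 in wild-type TA, and 131 and 253 in heart. It was 1.63-fold higher in TA and 1.93-fold lower in heart on this probe set. A second probe set turned the direction in TA, with signals of 129 and 196, a log2 ratio of -0.60. In heart that probe set read 63.7 in knockout, under the floor, and 106.5 in wild type, a bound of -0.07 or below. The direction of Srebf2 in TA therefore depends on the probe set, and no direction is given for the gene there.

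Stard4, a carrier that moves cholesterol between membranes, was 1.04-fold lower in TA (407 and 423.5) and 1.52-fold lower in heart (419 and 638). Its probe sets disagreed as well. The other 2 gave 2.21-fold and, with knockout under the floor, at least 1.45-fold lower in TA. In heart they gave log2 ratios of 0.14 and -0.08.

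The lipogenic genes had medians closest to 0 among the 4 roles. None of the 7 reached 1.5-fold in either tissue, and the medians were -0.03 in TA and -0.003 in heart. Over all genes, 4.19% were 1.5-fold higher and 4.44% lower in TA, and 2.67% and 4.18% in heart. At such shares, 0 of 7 does not set these genes apart. Acly, which makes cytosolic acetyl-CoA from citrate, had signals of 1261 and 1343 in knockout and wild-type TA, and 2282 and 2257 in heart, a difference of 1.06-fold or less. Scd1 and Scd2, desaturases of long-chain fatty acids, were on the probe sets that stand for them within 1.06-fold in both tissues, except Scd1 in heart, which was 1.20-fold higher.

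Fasn, the fatty acid synthase gene, was 1.04-fold higher in TA (507 and 489) and 1.49-fold higher in heart (1003 and 672). Acaca, the carboxylase gene that feeds Fasn, was 1.37-fold higher in TA (314 and 229.7) and 1.13-fold lower in heart (218 and 246). The elongase gene Elovl6 was 1.04-fold lower in TA, with a second probe set at 1.48-fold, and 1.41-fold lower in heart. Me1, which supplies NADPH, was 1.20-fold lower in TA and level in heart. Fasn and Elovl6 thus lay on opposite sides of 0 in heart. The 17 mevalonate and sterol enzymes had a median of -0.16 in TA and -0.31 in heart. In TA 4 of them were 1.5-fold lower (Mvk, Sqle, Hsd17b7 and Dhcr7, against 4.44% of all genes). In heart 4 were (Idi1, Sqle, Msmo1 and Dhcr7, against 4.18%). Hsd17b7 passed in TA only on the probe set that stands for it, and others gave log2 ratios of -0.52 and 0.045.

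How much of this exceeds measurement error can only be described. In TA, 16 genes had several measured probe sets, and in 12 all of them lay on the same side of 0, with a median range of 0.23 in log2 ratio and a largest of 1.30 (Srebf2). In heart, 8 of 12 did, with a median range of 0.19 and a largest of 0.87 (also Srebf2, where a ratio is a bound). Dim genes also spread more widely: among all genes with a mean signal below 200 in TA, the middle 95% of log2 ratios ran from -0.83 to 0.73, and among those at 1000 or more from -0.58 to 0.71. In heart these ranges were -0.83 to 0.71 and -0.49 to 0.49. Against genes in their own range of signal, Mvd, Mvk and Sqle lay outside the middle 95% in TA, and Sqle, Idi1, Srebf2 and Fasn in heart. Dhcr7 in both tissues, Srebf2 and Hsd17b7 in TA, and Msmo1 and Stard4 in heart lay inside it. No gene with a mean signal of 1000 or more was among those past 1.5-fold.

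**Figure D3:**
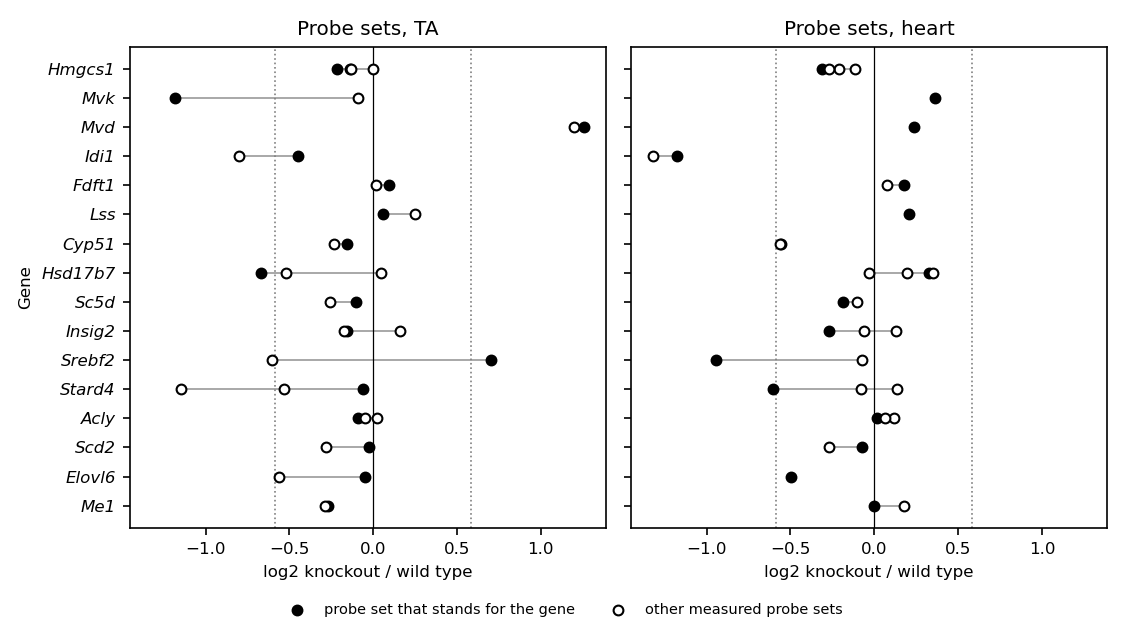
Log2 ratio of knockout over wild type on each measured probe set, for the 16 genes with several of them, in TA (left) and heart (right); filled points stand for the gene, open points are its other probe sets, and dotted lines mark 1.5-fold. The probe sets of Mvd in TA and of Idi1 in heart lie close together, whereas those of Srebf2 in TA lie on both sides of 0.

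Set side by side, 13 of the 30 genes were below 0 in both tissues, 7 above 0 in both, 6 above in TA and below in heart, and 4 the reverse. Of all genes, 5616 of 11528 were above 0 in TA and 5691 of 11452 in heart. Their split over both tissues is not given here, so these 4 counts do not set the genes apart. The difference of the log2 ratios, TA minus heart, was at least 1.5-fold upwards for 5 genes (16.7%, against 6.44% of the 10802 genes measured in both tissues) and downwards for 2 (6.67%, against 5.1%). The 5 were Mvd (1.02), Msmo1 (0.82), Idi1 (0.73), Acaca (0.62) and Srebf2 (1.65). On the second probe set of Srebf2 a heart signal was under the floor. Its difference there was a bound, -0.53 or above, so its sign is not fixed. The 2 were Mvk (a bound, -1.54 or below) and Hsd17b7 (-0.99). Other probe sets of Hsd17b7 measured in both tissues gave -0.49 and -0.31, short of 1.5-fold. The difference was not tested, since each value rests on 4 arrays with none repeated.

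Other genes of lipid handling were described from lists chosen with earlier results of these data known. One such list holds genes of sterol efflux, uptake, storage and transport, together with LXR. LXR receptors respond to oxidised sterols and induce genes that lower cell cholesterol. Of 11 measured genes, 2 were 1.5-fold higher and 1 lower in TA (against 4.19% and 4.44% of all genes), and 2 higher and 0 lower in heart (against 2.67% and 4.18%). The medians were 0.27 and 0.35. Above 0 were 8 of 11 in TA, where 5616 of all 11528 genes were, and 10 of 11 in heart, where 5691 of 11452 were. The only LXR receptor gene measured, Nr1h3, was below 0 in TA (-0.11) and had a bound of 0.35 in heart.

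Abca1, the cholesterol efflux pump gene, had signals of 4396 and 2559 in knockout and wild-type TA, and 5518 and 2745 in heart, 1.72-fold and 2.01-fold higher. Its second measured probe set was 1.52-fold higher in heart and at least 1.24-fold higher in TA. Mylip, which encodes a ubiquitin ligase of lipoprotein receptors, had 1785 and 1043 in TA, and 2231 and 906 in heart, 1.71-fold and 2.46-fold higher. Both knockout pools exceeded both wild-type pools for these genes, the reverse of Sqle. Abcg1, a second efflux pump gene, was 1.20-fold and 1.38-fold higher. Cyp27a1, which makes an oxidised sterol in mitochondria, was 1.62-fold lower in TA but 1.45-fold higher in heart.

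Among 18 measured lipogenic regulators and genes of desaturation and glyceride synthesis, 3 were 1.5-fold lower in TA (against 4.44% of all genes) and 0 higher (4.19%). In heart 0 passed (against 4.18% lower and 2.67% higher). Thrsp, a regulator of lipogenesis, had signals of 762 and 2267 in knockout and wild-type TA, 2.97-fold lower, and 244 and 237 in heart. The desaturase gene Fads2 was 1.75-fold lower in TA, where its second measured probe set pointed the other way (a bound of 0.38, with wild type under the floor), and Acss2, which makes acetyl-CoA from acetate, 1.52-fold lower. The 12 measured genes of SREBP processing and degradation had medians of -0.08 in TA and 0.03 in heart. Of them 0 reached 1.5-fold (against 4.19% higher and 4.44% lower in TA, and 2.67% and 4.18% in heart). Of the isoprenoid-using genes, 1 of 10 was lower in TA (against 4.44%), Pdss2 of ubiquinone synthesis at 1.66-fold, and 1 of 9 higher in heart (against 2.67%), the prenyl protease gene Rce1 at 1.66-fold.

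**Figure D4:**
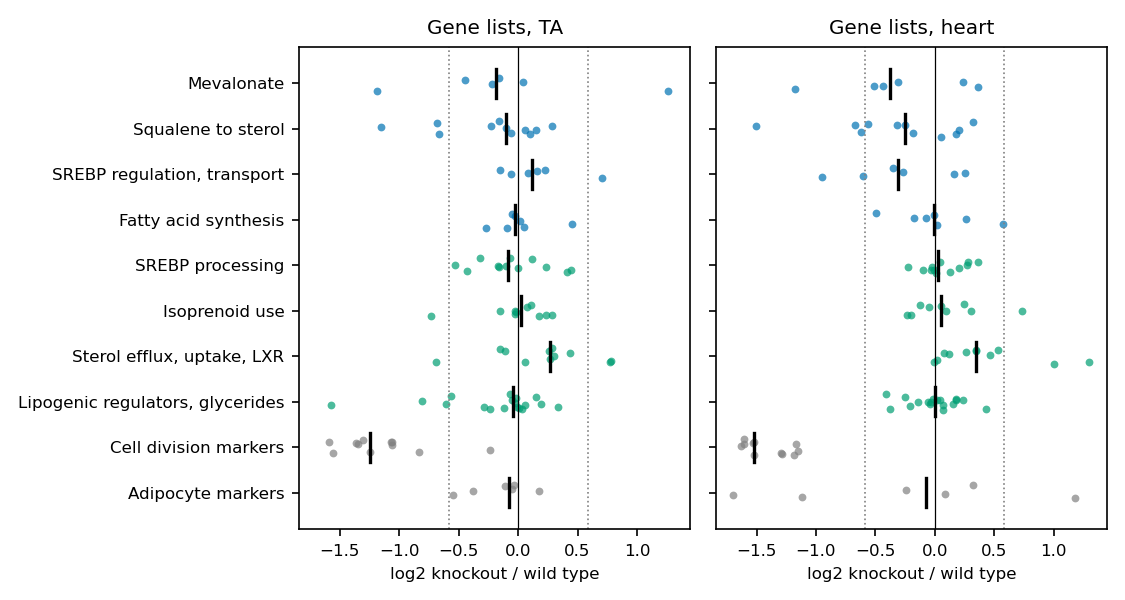
Log2 ratio of knockout over wild type for every measured gene of 10 lists, in TA (left) and heart (right); each point is a gene, black bars are list medians, blue marks the genes of synthesis and regulation, green the other lipid genes and grey the markers, and dotted lines mark 1.5-fold. The list of sterol efflux, uptake and LXR has medians of 0.27 and 0.35, and the cell division markers lie at -1.25 and -1.52.

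Markers of dividing cells moved with the knockout in both tissues. Of 11 measured, 10 were 1.5-fold lower in TA and 11 in heart (against 4.44% and 4.18% of all genes). Their summed signals were 4538 in knockout and 10322 in wild-type TA, and 6141 and 15887 in heart. The largest of these ratios were that of Aurkb in TA, 3.01-fold lower, and of Bub1 in heart, 3.09-fold lower. Their part in the ratios of Sqle, Idi1 and Dhcr7 was not tested. Markers of endoplasmic reticulum stress were higher in knockout TA in 12 of 12 cases (against 4.19% of all genes), with Sdf2l1 at 20.03-fold. In heart 2 of 12 were higher and 1 lower (against 2.67% and 4.18%). The summed signals of these markers were 137530 in knockout and 32017 in wild-type TA, and 43755.5 and 40106.5 in heart. Their part in the difference between tissues was not tested.

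Fat cells are rich in lipogenic enzymes. Of 10 adipocyte markers on the array, 6 were measured in TA, of which 0 passed 1.5-fold in either direction, with summed signals of 56252 in knockout and 59759 in wild type. In heart 6 were measured, with 1 higher (Pparg) and 2 lower (Ucp1 and Car3), and sums of 38409 and 37019.7. These sums are mostly Fabp4 and, in TA, Car3, which muscle fibres also make. Adipoq was under the floor in both heart pools, and Lep and Cidec were under it on all 4 arrays. Ucp1 of brown fat read 328 in wild-type heart and 30.2 in knockout heart. Schwann cell markers, from cells that make sterol for myelin, had 0 of 7 past 1.5-fold in TA and 0 of 3 in heart. Their sums were 11273 and 10783 in TA and 3536 and 4085.5 in heart. Most of this is Pmp22, with 9175.7 and 8648.6 in TA and 2744.6 and 3303.7 in heart. Among leukocyte markers 2 of 8 were higher in TA and 1 of 8 in heart, with S100a8 at 5.26-fold in TA. The leukocyte sums were 10538 and 9314 in TA and 7119 and 6662 in heart. Over all genes, 4.19% were 1.5-fold higher and 4.44% lower in TA, and 2.67% and 4.18% in heart. At such shares, 0 past 1.5-fold does not set these short lists apart. The part of fat cells, Schwann cells and leukocytes in the results was not tested.

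On the probe sets that stand for them, few of these genes differed 2-fold between wild-type TA and heart. This comparison shares its arrays with those above, and it counted genes from 2-fold. Only 1 of 30 was 2-fold higher in TA (3.33%, against 7.56% of 11872 genes) and 1 lower (3.33%, against 7.8%), around a median of 0.02 beside -0.07 over all genes. Scd1 was 3.21-fold higher in TA (1255 against 391), and Hsd17b7 3.93-fold lower (239.8 against 943). The 3 probe sets of Hsd17b7 measured in this comparison agreed, with log2 ratios from -2.20 to -1.93.

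Just short of 2-fold were Elovl6, 1.98-fold higher in TA (358 against 180.4), and Fdft1, 1.77-fold higher (2456 against 1384). Second probe sets of both passed 2-fold, with log2 ratios of at least 1.33 for Elovl6 and 1.41 for Fdft1. Acly was 1.68-fold higher in heart, and its other 2 measured probe sets gave log2 ratios of -0.35 and -0.34. Srebf2 was 1.52-fold and Stard4 1.51-fold higher in heart, but their other probe sets did not share this: that of Srebf2 read 0.88, and those of Stard4 0.37 and -0.16. Hmgcs1 and Dhcr7 were within 1.01-fold of equal. Thrsp, beside the list, was 9.56-fold higher in wild-type TA, and Dgat2, a triglyceride synthesis gene, 4.14-fold lower.

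**Figure D5:**
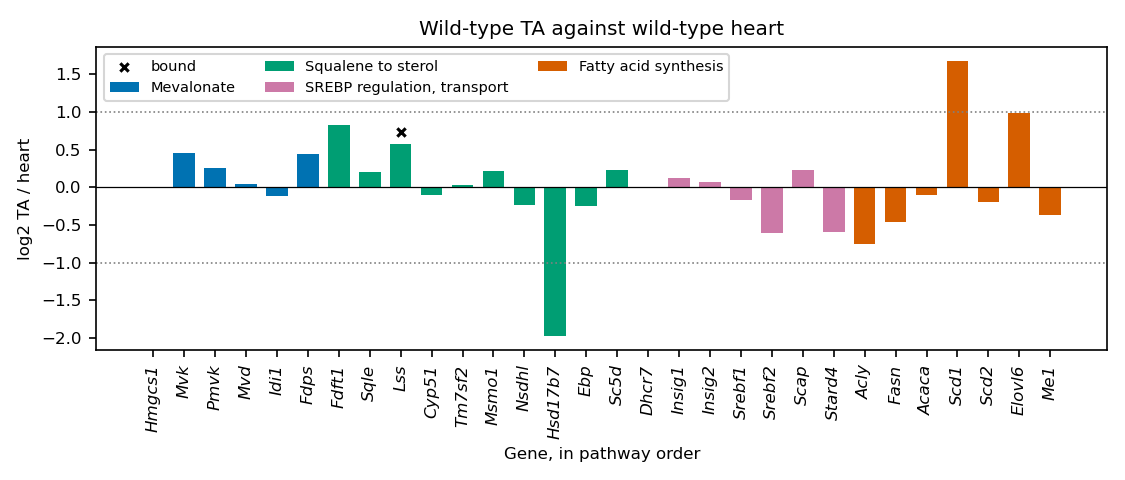
Log2 ratio of wild-type TA over wild-type heart for 30 genes in pathway order; colours mark the role, dotted lines 2-fold, and the cross a ratio in which a signal was raised to the floor. Scd1 and Hsd17b7 pass the lines at 1.68 and -1.98, and most other genes lie near 0.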

How the data were processed

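RNA of TA and heart was measured on 4 arrays, 1 for each genotype and tissue. The authors deposited linear signal intensities for single probe sets, computed with MAS5 according to the submitters' processing notes. The sources used here do not state its version, its scaling target or any detection calls. Trimmed means of the arrays lay between 496.35 and 496.83, so the intensities were compared as deposited. The number of arrays limits the precision.

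Of 45037 probe sets, 34945 had 1 gene symbol in the platform's annotation and were used, 932 had several and 9160 none. Each gene was represented by its brightest probe set, by the mean of the 4 signals. All 30 genes matched a RefSeq gene of the same symbol. Ratios were computed with pandas 2.3.3 and numpy 2.4.6, and the code was tested on simulated arrays. The alternatives were 3 other scalings, 3 other floors, log2(signal + 50) and 3 other rules for probe sets. Every gene followed was named; from other lists, up to 4 genes with the largest ratios could be named, and only some were. Abcg1, Nr1h3, Adipoq, Lep, Cidec and Fabp4 fall outside this rule and were named after their values were seen. Lists, genes and motifs were chosen with earlier results of these data known. With 1 array a group a ratio within a tissue has no test, and a joint model of genotype over both tissues was not fitted.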

Additional observations from a re-analysis of the deposited data

Results flagged for a closer look

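For 5 genes the ratios of knockout over wild type had opposite signs in TA and heart and lay at least 1.5-fold apart. Of all 10802 genes measured in both tissues, 6.44% lay that far apart upwards and 5.1% downwards, whatever their signs. How many of them also had opposite signs is not given here. The log2 ratio of TA minus that of heart was 1.65 for Srebf2 (0.70 in TA and -0.95 in heart) and for Mvk it was a bound of -1.545 or below (-1.18 or below in TA and 0.36 in heart). It was -0.994 for Hsd17b7 (-0.67 and 0.32), 0.819 for Msmo1 (0.15 and -0.67) and 0.625 for Acaca (0.45 and -0.17). None of these differences was tested, since each group has 1 array. For Srebf2 a second probe set read -0.60 in TA and a bound of -0.07 or below in heart. The opposite signs are thus seen on 1 of its 2 probe sets. The other probe sets of Hsd17b7 measured in both tissues did not have opposite signs. One read 0.05 in TA and 0.35 in heart, the other -0.52 and -0.03.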

How the results depend on the processing

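Under 10 alternatives, 65 of 80 recomputed counts of genes stayed within 1.5 times the count given. With the floor at the 75th percentile of signals (471.5), which removes or flattens dim genes, 0 genes were higher and 0 lower in knockout TA, 0 lower in heart, and 0 differed between tissues in either direction. With log2(signal + 50), TA had 1 higher and 2 lower, and heart had 4 lower in place of 6. With the median over probe sets, TA had 1 higher, without Srebf2, and heart had 4 lower, without Srebf2 and Stard4. With the brightest probe set in the arrays compared, or without probe sets named _x_at or _s_at, 1 gene had a lower ratio in TA than in heart, and Hsd17b7 in TA turned to 0.045. Genes 2-fold higher in wild-type TA than in heart numbered 2 after centring, either quantile normalization or removal of those probe sets, and 3 with the median over probe sets.

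Of 21 ratios past their threshold, 10 stayed past it under every alternative that gave a value, among them Sqle in both tissues and Mvk and Mvd in TA. The highest floor gave no value for these. Sqle has 1 probe set and signals above the floor, so the probe set rules, the lower floor and no floor could not change its ratios. Only the other scalings and log2(signal + 50) could. The log2 ratios of Sqle then ran from -1.16 to -0.94 in TA and from -1.54 to -1.16 in heart. Dim signals are the main limit: all followed genes past 1.5-fold between genotypes had a mean signal below 1000. No paired analysis was possible because each group has 1 array.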
